A study of Homo sapiens with 6 samples.

Results

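Oxidative phosphorylation (OXPHOS) genes were examined in Jurkat, a human cell line from T-cell acute lymphoblastic leukaemia, 15 min after the chemokine CXCL12. The members were the named probe sets whose gene symbol starts with NDUFA, NDUFB, NDUFC, NDUFS, NDUFV, UQCR, ATP5 or COX4 to COX8, or is SDHA, SDHB, SDHC, SDHD or CYC1. The rule found 88 genes, each with 1 probe set, among 21448 probe sets on the array. Of these, 86 had a mean log2 signal above 4.44, the 25th percentile of all probe-set means, and were tested; COX7B2 and the divergent noncoding transcript NDUFV1-DT lay below it and were left out as dim. No probe set was named here for NDUFS1, SDHB, UQCRFS1, NDUFA4 or NDUFA4L2, so these are not described. Cells were grown with 10% serum, and both groups were then starved of serum for 90 min. The CXCL12 group (3 arrays) then received 100 ng/ml CXCL12 for 15 min, and the untreated group (3 arrays) received none. The titles call the arrays of a group biological replicates without saying that they came from separate cultures, so the p-values describe only how these 3 and 3 samples scatter, and that scatter may be technical. The cells are 1 cultured line with no other genotype named.

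Oxidative phosphorylation is the chain of protein complexes in the inner mitochondrial membrane that burns NADH and succinate to make ATP. Complex I takes electrons from NADH and complex II from succinate; both pass them through ubiquinone to complex III, then through cytochrome c to complex IV, which reduces oxygen. Complexes I, III and IV pump protons, and complex V, the ATP synthase, lets them flow back to make ATP. Every member here is encoded in the nucleus, and complexes I, III, IV and V also hold subunits encoded by mitochondrial DNA. T cells are known to raise both glycolysis and respiration when activated. Transcript levels say nothing directly of protein, enzyme activity or respiration.

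Over all 21448 probe sets, dim ones included, median log2 signals ran from 6.205 to 6.215 in the CXCL12 arrays. They ran from 6.181 to 6.195 in the untreated arrays, a small offset between the groups that median centring removes. Among the probe sets tested, the median change was 0.0023 as deposited and -0.02 after median centring. Mean correlations with the other arrays were 0.987 to 0.988 for the CXCL12 arrays and 0.982 to 0.989 for the untreated arrays, with untreated replicate 1 at the low end. All 14 T-cell markers checked, CD3D, CD3E, LCK and TAL1 among them, were above the dim limit. Of the markers of 6 other cell types, 4 of 5 B-cell, 4 of 6 monocyte, 2 of 4 NK-cell, 4 of 4 erythroid, 3 of 4 fibroblast and 2 of 4 epithelial probe sets were above it too. These lists averaged 4.64 to 6.42 in the CXCL12 arrays and 4.66 to 6.46 in the untreated arrays, against 9.51 to 9.61 and 9.51 to 9.56 for the T-cell markers, and the ranges of each list overlapped between the groups. EGR1, an immediate early transcription factor, served as the check of the stimulus: it had log2 signals of 8.13, 7.80 and 7.98 in CXCL12 arrays and 5.94, 5.91 and 6.12 in untreated arrays (limma adjusted p = 4.52e-05).

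No OXPHOS transcript passed the test after CXCL12, and the changes of single members were small. Changes are log2 differences, CXCL12 minus untreated, and adjusted p-values come from limma with Benjamini-Hochberg adjustment over all 16086 probe sets tested, with 0.05 as the threshold. Of the 86 tested members, 0 were called, where 0.0124% of all probe sets were called higher and 0% lower. At an unadjusted limma p under 0.05 there were also 0 members, where 4.73% of all probe sets passed, 2.72% higher and 2.01% lower. The changes ran from -0.23 (SDHC) to 0.30 (COX6B2), with quartiles of -0.10 and 0.06, against quartiles of -0.09 and 0.10 over all probe sets tested. The median change was -0.02 over the members and 0.0023 over all probe sets. There were 36 positive and 50 negative changes, and that balance turned to 47 positive and 39 negative when the arrays were quantile-normalized again and to 46 and 40 with cyclic loess, so the members as a family had no direction that held under each scaling (median centring gave 33 and 53). The share of positive changes was 41.9% of the members against 50.7% of all probe sets tested in the values as deposited. It was 54.7% against 50.2% with renewed quantile normalization and 53.5% against 49.9% with cyclic loess. With median centring it was 38.4% against 44.7%, and the median of all probe sets tested moved to -0.02.

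**Figure D1:**
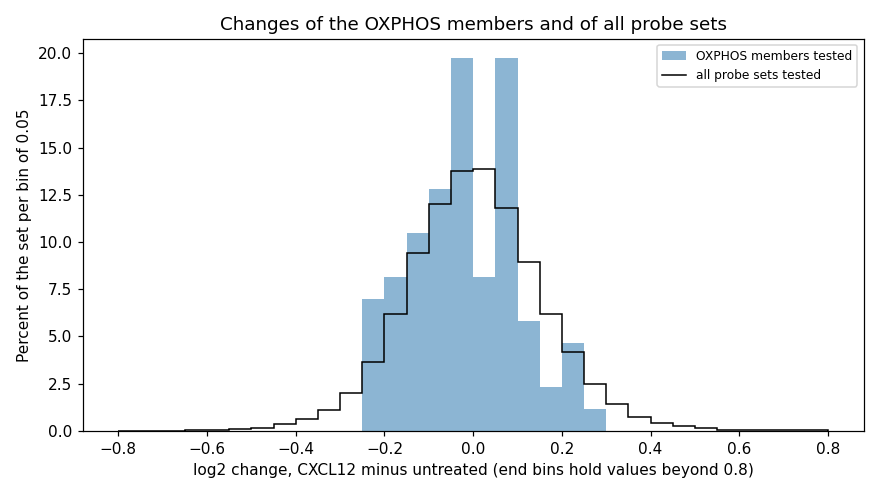
Distribution of log2 changes, CXCL12 minus untreated (x axis), as percent of each set per bin of 0.05 (y axis), for the 86 OXPHOS members tested (filled) and for all 16086 probe sets tested (line). The members lie between -0.23 and 0.30. The line reaches beyond them on both sides, which the larger size of that set alone can give. Quartiles are -0.10 and 0.06 for the members and -0.09 and 0.10 for all probe sets tested.

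The intervals show how large a change the data leave room for. A change beyond 1.5-fold in either direction lay outside the 95% interval for 82 of 86 members, 95.3%, against 89.9% of all probe sets. The 4 others were NDUFC1, COX6B2, UQCRB and COX7C, whose intervals reached 0.62, 0.61, -0.61 and -0.59. The median half-width of the members' intervals was 0.30, against 0.29 over all probe sets tested, so the members' intervals were not narrower. The change was smaller than the range of the 3 untreated arrays for 83 of 86 members, 96.5%, and for 87.2% of all probe sets. A range of single arrays readily exceeds a difference of group means, so this count does not show that a change was absent. The median untreated range was also wider for the members, 0.34 against 0.29 over all probe sets tested.

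**Figure D2:**
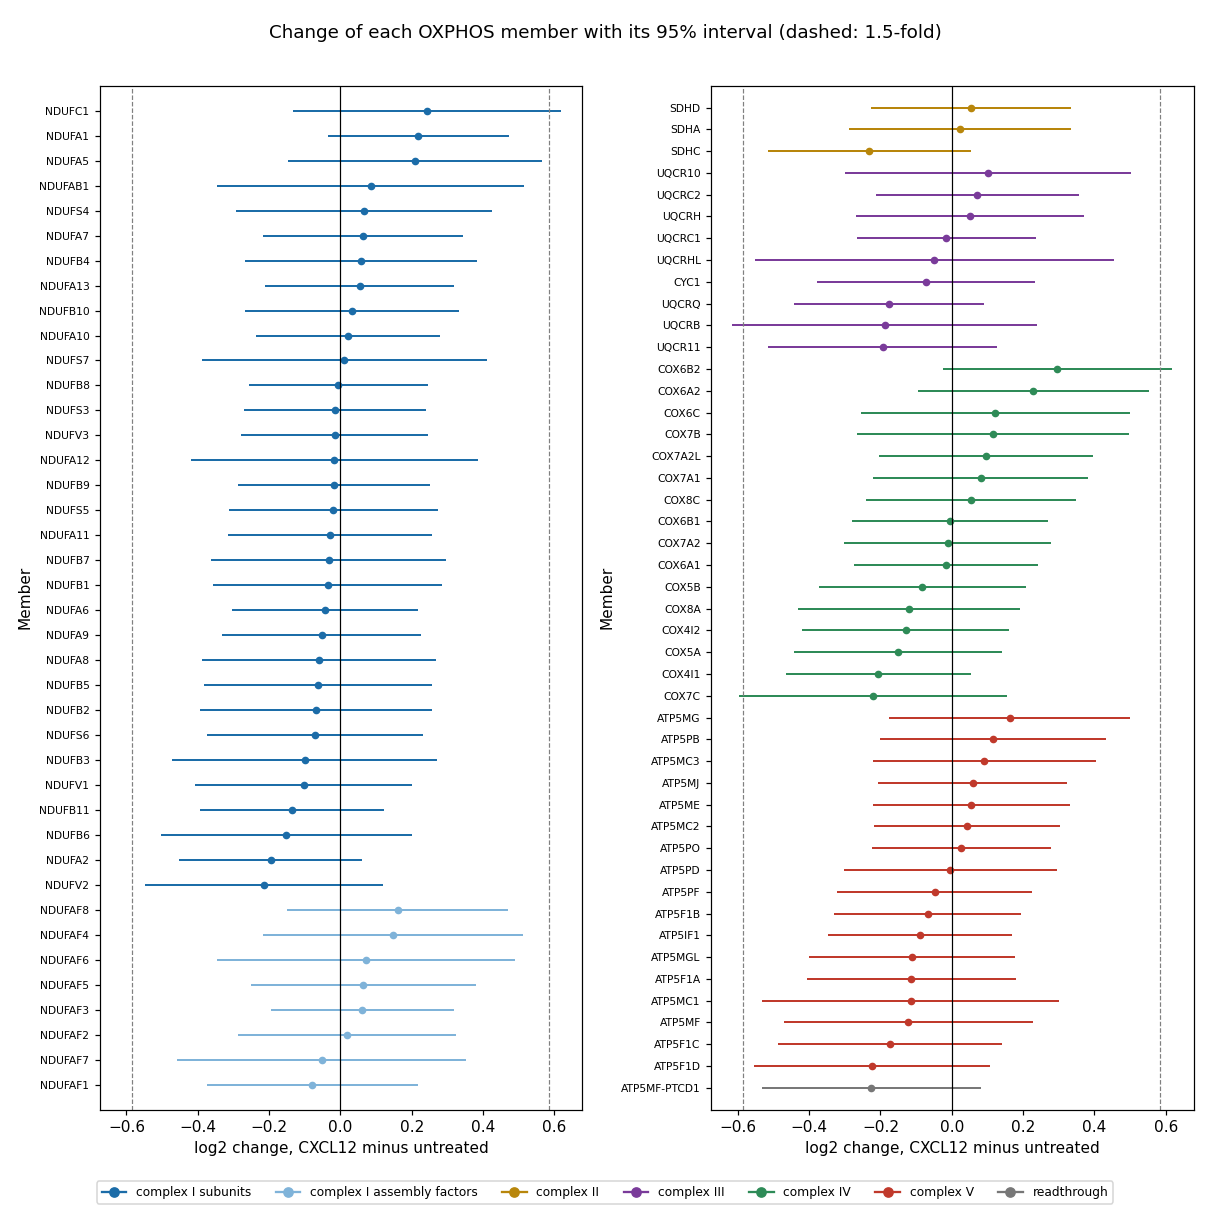
Log2 change of each tested member, CXCL12 minus untreated (x axis), with its 95% limma interval (line), ordered by complex and by size (rows, coloured by complex). Every interval includes 0, and 82 of 86 stay between the dashed lines, which mark a 1.5-fold change either way.

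Complex I, the largest of the complexes, had 32 tested subunits, with 11 positive and 21 negative changes and a median of -0.02. None passed the test. NDUFC1, a small accessory subunit of the membrane arm, had the most positive value. Its log2 signals were 8.17, 7.68 and 8.17 in CXCL12 arrays and 7.49, 7.76 and 8.04 in untreated arrays, a change of 0.24 (SE 0.17). The groups overlapped, since CXCL12 replicate 2 lay below untreated replicates 2 and 3. NDUFA5, an accessory subunit of the arm that projects into the matrix, had 7.69, 7.26 and 7.78 in CXCL12 arrays and 7.51, 7.12 and 7.48 in untreated arrays (change 0.21, SE 0.16). In each group replicate 2 was the lowest.

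NDUFA1, an X-linked accessory subunit needed to assemble the complex, was the 1 member whose CXCL12 arrays all lay above every untreated array. It had 8.48, 8.35 and 8.49 in CXCL12 arrays and 8.23, 8.17 and 8.26 in untreated arrays, a 1.16-fold higher mean (log2 change 0.22, 95% interval -0.03 to 0.47, limma adjusted p = 0.996). Its promoter and that of COX4I1, the complex IV subunit with the clearest separation in the other direction, are shown because both carry 1 match to the core of the site bound by ETS factors such as GABPA, CCGGAAG on either strand, which is in capitals. Both windows are from RefSeq, build GRCh38.p14, with 250 bases before and 50 after the start; NDUFA1 is at chrX:119871582-119871881, plus strand, and COX4I1 at chr16:85799445-85799744, plus strand.
NDUFA1: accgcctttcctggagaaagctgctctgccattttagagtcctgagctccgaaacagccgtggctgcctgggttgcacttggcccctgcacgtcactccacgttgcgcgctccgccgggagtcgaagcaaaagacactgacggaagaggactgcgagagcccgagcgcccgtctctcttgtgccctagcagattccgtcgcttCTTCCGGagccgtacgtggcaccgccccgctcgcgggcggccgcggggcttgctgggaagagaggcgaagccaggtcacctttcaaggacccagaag
COX4I1: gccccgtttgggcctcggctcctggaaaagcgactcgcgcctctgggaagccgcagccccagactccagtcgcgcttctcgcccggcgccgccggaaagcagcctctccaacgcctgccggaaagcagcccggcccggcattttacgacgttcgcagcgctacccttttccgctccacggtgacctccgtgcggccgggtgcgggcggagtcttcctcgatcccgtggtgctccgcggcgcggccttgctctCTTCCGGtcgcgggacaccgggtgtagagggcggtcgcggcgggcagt
The match began at base 204 of the NDUFA1 window and at base 253 of the COX4I1 window. The window holds 250 bases before the start, so the NDUFA1 match lay before the start and the COX4I1 match just after it. NDUFA1 had a positive and COX4I1 a negative change, neither past the threshold.

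At the lower end of complex I stood NDUFV2, NDUFA2 and NDUFB6. NDUFV2, an iron-sulfur protein of the NADH-oxidising module, had 9.04, 8.65 and 8.70 in CXCL12 arrays and 8.90, 8.86 and 9.27 in untreated arrays (change -0.22, SE 0.15). NDUFA2, an accessory subunit of the matrix arm, had 9.17, 9.10 and 9.26 in CXCL12 arrays and 9.44, 9.39 and 9.29 in untreated arrays (change -0.20, SE 0.12, limma adjusted p = 0.996). Its groups did not overlap, though the nearest arrays were 9.26 and 9.29. NDUFB6, an accessory subunit of the membrane arm, had 8.68, 8.38 and 8.58 in CXCL12 arrays and 8.89, 8.34 and 8.87 in untreated arrays, so that replicate 2 was again the lowest of each group. NDUFV1, the flavoprotein that oxidises NADH, had 9.66, 9.72 and 9.47 in CXCL12 arrays and 9.50, 9.91 and 9.76 in untreated arrays, with overlapping groups (change -0.10, 95% interval -0.40 to 0.20). The 4 core subunits of the matrix arm with a probe set (NDUFS3, NDUFS7, NDUFV1 and NDUFV2) had 1 positive and 3 negative changes, with a median of -0.06, against 10 positive and 18 negative changes and a median of -0.02 for the 28 accessory subunits.

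The NDUFAF genes encode assembly factors that help build complex I and are not part of the finished enzyme. Of 8 tested, 6 changes were positive and 2 negative, the median was 0.06, and none passed. NDUFAF8 had 9.15, 8.97 and 8.97 in CXCL12 arrays and 8.60, 9.01 and 8.999 in untreated arrays. Untreated replicate 1 alone was low, and the change of 0.16 became 0.02 without it. NDUFAF4 had 9.71, 9.10 and 9.54 in CXCL12 arrays and 9.27, 9.12 and 9.51 in untreated arrays (change 0.15, SE 0.17). NDUFAF7, a methyltransferase that modifies a core subunit, had 6.66, 6.97 and 6.87 in CXCL12 arrays and 7.36, 6.67 and 6.62 in untreated arrays, and its change of -0.05 turned to 0.19 without untreated replicate 1. NDUFAF1, which acts on early intermediates of the membrane arm, had a change of -0.08. The medians of the assembly factors and of the subunits were not tested against each other, and both lay within the spread of single arrays.

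**Figure D3:**
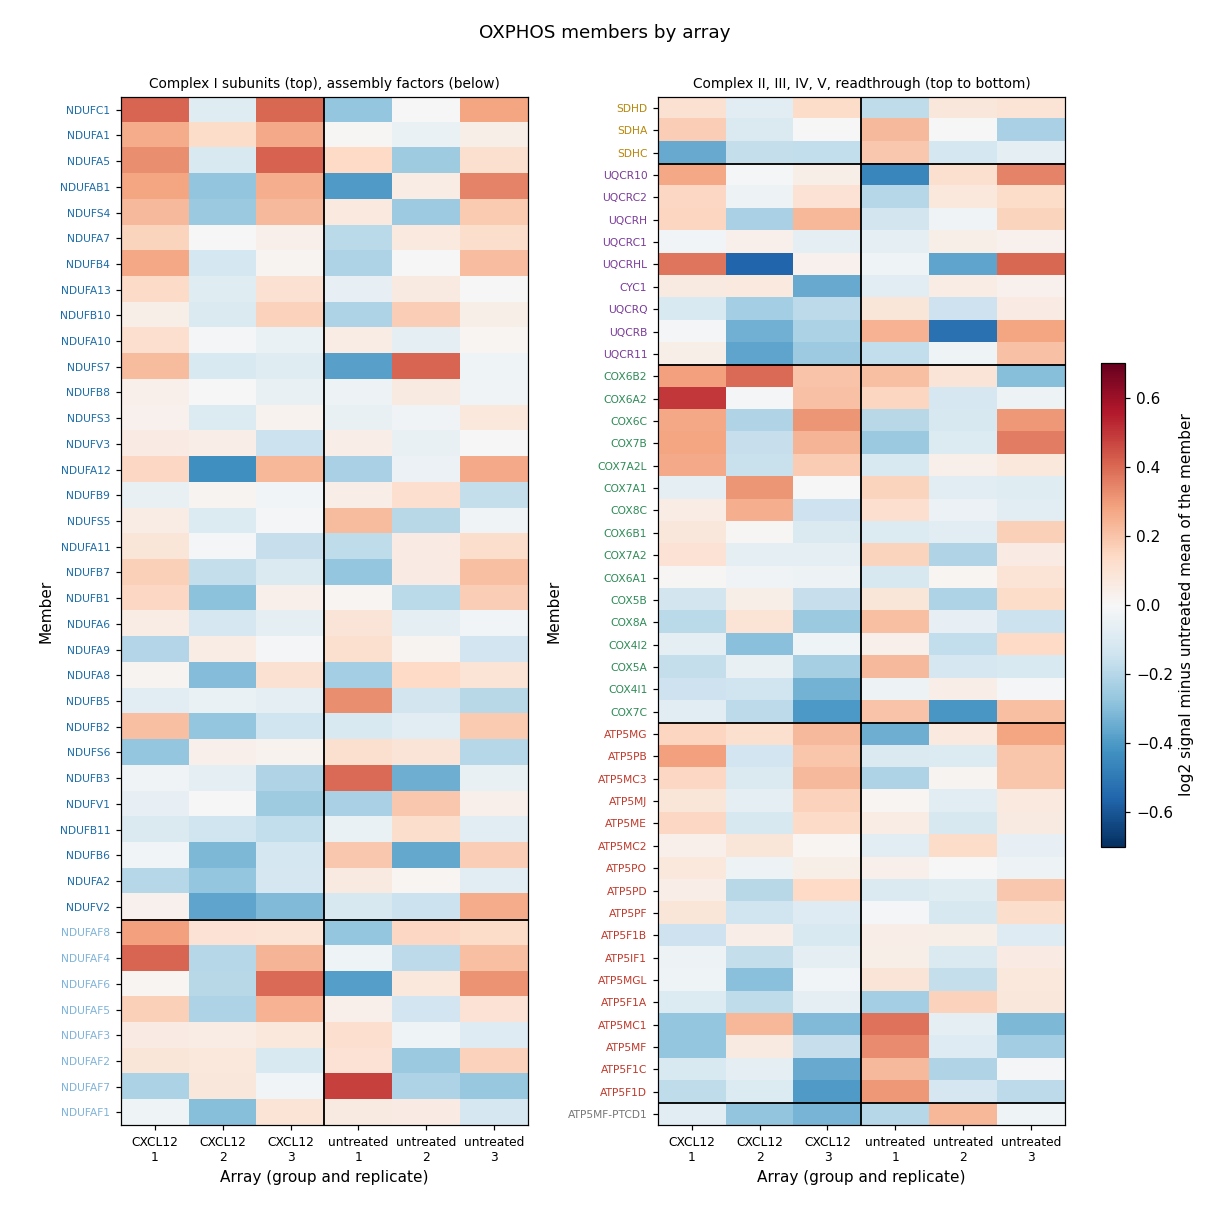
Log2 signal of each tested member (rows, by complex) on each array (columns, CXCL12 replicates left and untreated replicates right), minus the member's untreated mean. Columns of 1 group differ from each other: CXCL12 replicate 2 is the lowest CXCL12 array for 52 of 86 members (60.5%, against 38.2% of all probe sets). Untreated replicate 1 is the lowest untreated array for 37 members (43%) and the highest for 31 (36%). These shares are near those of all probe sets, 38.9% and 37.9%.

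Complex II, which is also the succinate dehydrogenase of the citric acid cycle, had 3 tested subunits and no call. SDHC, a membrane anchor, had 9.02, 9.21 and 9.20 in CXCL12 arrays and 9.56, 9.25 and 9.31 in untreated arrays, a change of -0.23 (95% interval -0.51 to 0.05, limma adjusted p = 0.996). Its groups did not overlap, by a margin of 9.21 against 9.25, and the change was -0.14 without untreated replicate 1, the highest array. SDHD, its anchor partner, had 9.02, 8.84 and 9.04 in CXCL12 arrays and 8.74, 8.997 and 9.01 in untreated arrays (change 0.05). SDHA, the flavoprotein that oxidises succinate, had 8.42, 8.15 and 8.25 in CXCL12 arrays and 8.48, 8.25 and 8.02 in untreated arrays (change 0.02). The groups of SDHD and SDHA overlapped.

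Complex III, the cytochrome bc1 complex, had 9 tested members, 3 with a positive and 6 with a negative change, and a median of -0.05. The spread between arrays was wide here. UQCR10, a small accessory subunit, had 9.83, 9.55 and 9.60 in CXCL12 arrays and 9.10, 9.67 and 9.90 in untreated arrays; its change of 0.10 turned to -0.13 without untreated replicate 1. UQCRB, a subunit near the ubiquinone-binding site, had 9.18, 8.84 and 8.96 in CXCL12 arrays and 9.43, 8.66 and 9.46 in untreated arrays (change -0.19, SE 0.19). UQCR11, another small accessory subunit, had 10.78, 10.37 and 10.48 in CXCL12 arrays and 10.56, 10.71 and 10.94 in untreated arrays (change -0.19, SE 0.15). Each of these pairs of groups overlapped. UQCRC2, a core protein, had a change of 0.07, and CYC1, cytochrome c1, which hands electrons to cytochrome c, -0.07. UQCRH, the hinge protein, had 0.05, and its near-identical copy UQCRHL had -0.05 with a 95% interval from -0.55 to 0.45. Probes of the copies may share transcripts, so their separate values are uncertain.

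Complex IV, cytochrome c oxidase, had 16 tested members, 7 with a positive and 9 with a negative change, a median of -0.01 and no call. COX4I1, the ubiquitous form of the largest nuclear-encoded subunit, had 8.96, 8.96 and 8.77 in CXCL12 arrays and 9.07, 9.15 and 9.09 in untreated arrays. Every CXCL12 array was lower than every untreated one, a change of -0.21 (95% interval -0.46 to 0.05, limma adjusted p = 0.996), and it stayed between -0.24 and -0.14 when each array was left out in turn. COX7C, a small membrane subunit, had 10.07, 9.96 and 9.75 in CXCL12 arrays and 10.35, 9.74 and 10.36 in untreated arrays (change -0.22, SE 0.17). Its groups overlapped because untreated replicate 2 was low. COX5A, a matrix-side subunit, had 10.54, 10.65 and 10.47 in CXCL12 arrays and 10.93, 10.59 and 10.60 in untreated arrays; its change of -0.15 was -0.04 without untreated replicate 1.

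Several subunits of complex IV come in a ubiquitous and a tissue-restricted form. COX6B2, a testis form, and COX6A2, a heart and muscle form, had the most positive changes of the complex. COX6B2 had 4.94, 5.05 and 4.86 in CXCL12 arrays and 4.87, 4.74 and 4.35 in untreated arrays, a change of 0.30 (SE 0.15) close to the dim limit of 4.44. COX6A2 had 7.26, 6.75 and 6.97 in CXCL12 arrays and 6.92, 6.65 and 6.73 in untreated arrays (change 0.23, SE 0.15). Both pairs of groups overlapped. Their ubiquitous counterparts had changes of -0.0045 (COX6B1) and -0.02 (COX6A1), with 95% intervals from -0.28 to 0.27 and from -0.27 to 0.24; the change of each turned positive after renewed quantile normalization (0.02 and 0.0038) and cyclic loess (0.02 and 0.01). The intervals of COX6B2 (-0.02 to 0.61) and COX6A2 (-0.09 to 0.55) overlap these, and the difference between forms was not tested. The lung form COX4I2 had -0.13, the muscle form COX7A1 0.08, its ubiquitous counterpart COX7A2 -0.01, the supercomplex factor COX7A2L 0.10, COX7B 0.12, and the forms COX8A and COX8C -0.12 and 0.05. COX7A2 turned to 0.02 after renewed quantile normalization, 0.01 with cyclic loess and 0.03 with array weights. COX7B2, left out as dim, had log2 signals of 2.68, 2.98 and 2.71 in CXCL12 arrays and 2.75, 2.78 and 2.57 in untreated arrays.

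Complex V, the ATP synthase, had 17 tested members, 7 with a positive and 10 with a negative change, a median of -0.05 and no call. The 4 tested subunits of F1, the catalytic head, all had negative changes, none past the threshold, and this grouping was looked at after the values were seen. ATP5F1D, the delta subunit of the central stalk, had 8.85, 8.93 and 8.63 in CXCL12 arrays and 9.33, 8.91 and 8.85 in untreated arrays (change -0.22, SE 0.15), or -0.07 without untreated replicate 1. ATP5F1C, the gamma subunit that turns within the head, had 10.93, 10.97 and 10.68 in CXCL12 arrays and 11.25, 10.82 and 11.02 in untreated arrays (change -0.17, SE 0.14). Both pairs of groups overlapped. The alpha and beta subunits, which form the catalytic sites, had changes of -0.11 (ATP5F1A, 95% interval -0.40 to 0.18) and -0.07 (ATP5F1B, -0.33 to 0.19). ATP5IF1, the protein that blocks ATP hydrolysis by the enzyme, had 9.73, 9.60 and 9.70 in CXCL12 arrays and 9.81, 9.67 and 9.83 in untreated arrays, with overlapping groups (change -0.09).

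Outside F1, the 4 accessory subunits of the membrane part had 3 positive and 1 negative change (median 0.06), the 3 genes of the c ring 2 and 1 (median 0.04), and the 4 of the peripheral stalk 2 and 2 (median 0.01), with no call; the parts were not tested against each other. ATP5MG, subunit g, had 10.69, 10.65 and 10.77 in CXCL12 arrays and 10.19, 10.61 and 10.81 in untreated arrays (change 0.16, SE 0.15), and the change was -0.0086 without untreated replicate 1. ATP5PB, subunit b of the peripheral stalk, had 10.86, 10.44 and 10.77 in CXCL12 arrays and 10.47, 10.48 and 10.77 in untreated arrays (change 0.12, SE 0.14). Its groups overlapped. The c subunit of the proton-driven ring is encoded by 3 genes that give the same mature protein with different import signals. ATP5MC1 had 11.08, 11.58 and 11.04 in CXCL12 arrays and 11.72, 11.28 and 11.03 in untreated arrays, and its change of -0.12 became 0.07 without untreated replicate 1. ATP5MC2 had a change of 0.04 and ATP5MC3 0.09, each with a 95% interval that included 0. The ATP5MC1 signal was high in CXCL12 replicate 2 and untreated replicate 1, whereas ATP5MC3 was lowest in those same arrays, at 9.45 and 9.33. ATP5MF-PTCD1, a readthrough transcript that overlaps ATP5MF, had a change of -0.23 and ATP5MF -0.12; overlapping probes may not tell them apart, and both were named after their values were seen.

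**Figure D4:**
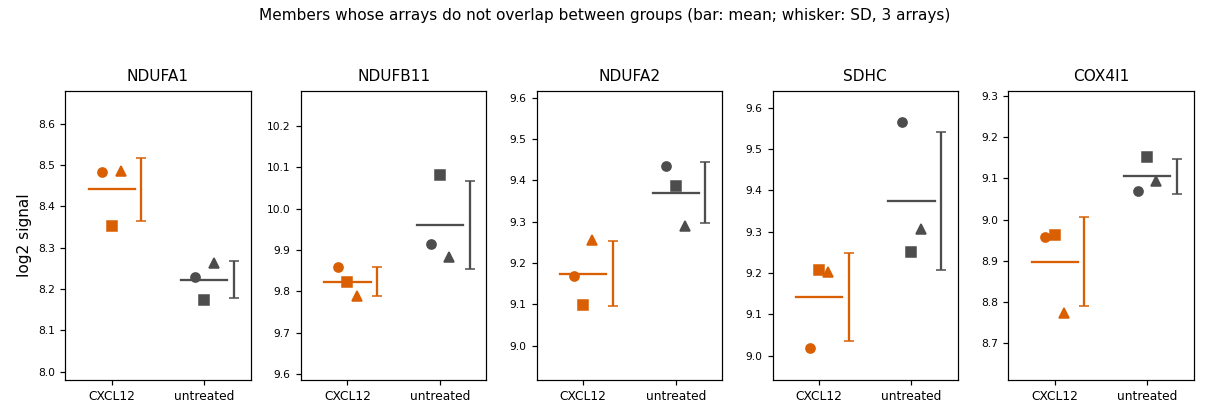
Log2 signal (y axis, each panel spans 0.7) of the 5 members whose arrays did not overlap between groups, with CXCL12 arrays left and untreated arrays right; circles, squares and triangles are replicates 1, 2 and 3, bars are the means and whiskers the SD (n = 3). NDUFA1 is higher and NDUFB11, NDUFA2, SDHC and COX4I1 are lower with CXCL12, by 0.14 to 0.23 on the log2 scale.

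Separation of the groups was no more frequent among the members than elsewhere on the array. The arrays did not overlap for 5 of 86 members, 1 higher (NDUFA1) and 4 lower (COX4I1, NDUFA2, NDUFB11 and SDHC), where 5.05% of all probe sets were higher and 4.48% lower without overlap. NDUFB11, an X-linked accessory subunit of complex I named after its values were seen, had 9.86, 9.82 and 9.79 in CXCL12 arrays and 9.92, 10.08 and 9.88 in untreated arrays (change -0.14, SE 0.12). The count of 5 became 10, 20 and 7 without CXCL12 replicates 1, 2 and 3 and to 14, 16 and 8 without untreated replicates 1, 2 and 3, beside 17.7%, 24.3%, 16.3%, 19.6%, 19.7% and 19.3% of all probe sets in those smaller fits. The 20 members without CXCL12 replicate 2 were 23.3% of the members.

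A few members passed an unadjusted limma p of 0.05 when 1 array was left out, and none passed the adjusted threshold there. Without CXCL12 replicate 2 there were 3, with positive changes of 0.41 (NDUFC1), 0.37 (NDUFA5) and 0.35 (COX6A2), beside 6.3% of all probe sets. Without untreated replicate 2 there were also 3, all negative, at -0.45 (UQCRB), -0.43 (COX7C) and -0.33 (NDUFB6), beside 5.18%. Without untreated replicate 1 there were 2, COX6B2 at 0.40 and ATP5MF-PTCD1 at -0.33, beside 4.98%. The count was 0 without CXCL12 replicates 1 and 3 and untreated replicate 3, beside 3.49%, 3.41% and 5.04% of all probe sets. Array weights, which give less weight to arrays that scatter more, passed 2, COX6B2 at 0.37 and COX6A2 at 0.32, beside 6.51%. Which members came nearest to the threshold, and their direction, differed with the array left out.

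The median level of the members differed between arrays of the same group, though single members did not all follow it. Relative to each member's untreated mean, the median member was 0.05, -0.10 and -0.02 on the CXCL12 arrays (replicates 1 to 3) and 0.0099, -0.04 and 0.06 on the untreated arrays (replicates 1 to 3). The same median over all probe sets tested stayed between -0.0093 and 0.01 in the CXCL12 arrays and between -0.0047 and 0.01 in the untreated arrays. CXCL12 replicate 2 was the lowest CXCL12 array for 52 members, 60.5%, against 38.2% of all probe sets, and CXCL12 replicate 1 the lowest for 9, 10.5%, against 30.3%. Among untreated arrays, replicate 3 was the highest for 40 members, 46.5%, against 27.7% of all probe sets. The source of this spread was not tested.

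By complex, the medians of the arrays overlapped between the groups in all 6 groups of members. Complex I subunits had 0.06, -0.10 and -0.02 on CXCL12 arrays against -0.04, -0.0005 and 0.04 on untreated arrays. Complex III had the widest array spread, with 0.06, -0.23 and -0.06 in CXCL12 arrays and -0.08, -0.03 and 0.16 in untreated arrays. Complex IV lay at 0.03, -0.04 and -0.05 in CXCL12 arrays and at 0.10, -0.08 and 0.06 in untreated arrays, and complex V at 0.03, -0.10 and -0.02 in CXCL12 arrays and at 0.04, -0.09 and 0.06 in untreated arrays. The SD of these medians between replicates, pooled over the groups, ran from 0.06 (complex I subunits) to 0.14 (complex III). The median changes of the complexes, from -0.05 (complex III) to 0.06 (assembly factors), were smaller than their own SD in each case.

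**Figure D5:**
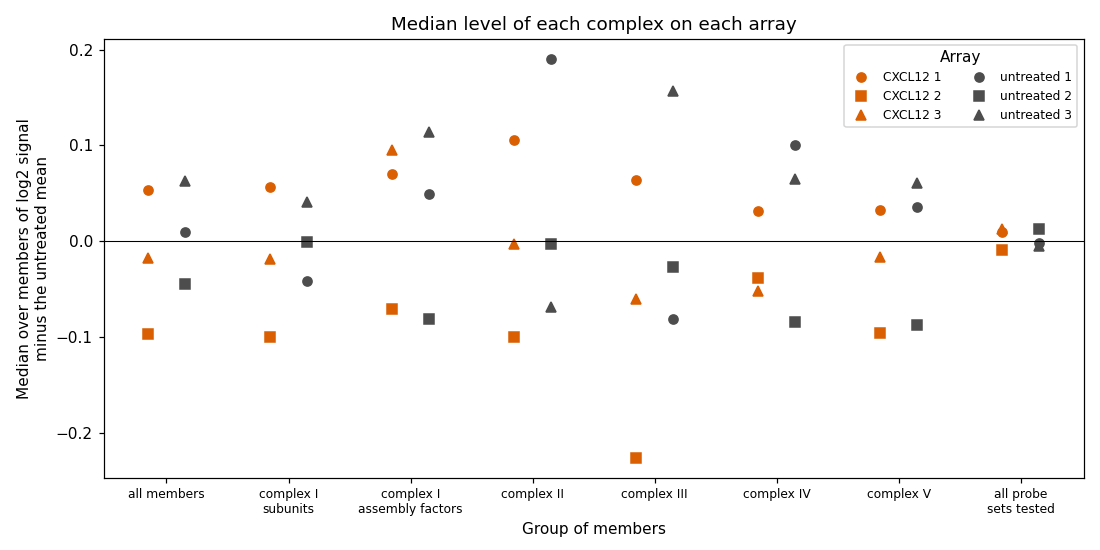
Median over the tested members of each group of log2 signal minus the member's untreated mean (y axis) on each array, with CXCL12 arrays left (orange) and untreated arrays right (grey) in each group and all 16086 probe sets at the far right. CXCL12 and untreated arrays interleave in each group of members, and CXCL12 replicate 2 reaches -0.23 for complex III.

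Some of the members' promoters held short motifs, which the symbol rule did not use. Nuclear OXPHOS genes are known to be driven by NRF1, by ETS factors such as GABPA, and by YY1. Of the 88 members, 71 had a promoter in the RefSeq table (build GRCh38.p14, the first listed start of each gene, 300 bases). An NRF1-type match, GCGCA, any base and then GCGC, on either strand, stood in 16 of 71, 22.5%, against 10.6% of 10818 other tested genes and 6.24% of 27234 other promoters. The ETS core CCGGAAG stood in 18, 25.4%, against 17.1% and 10.6%. The YY1-type AAGATGGCG stood in 7, 9.86%, against 3.46% and 1.83%. At least 1 of these 3 motifs was found in 35 of 71 members, 49.3%, and in 27.9% of the other tested genes. A match is a description of the letters and does not show binding.

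The EGR1-type and cyclic AMP motifs stood in fewer promoters than the NRF1, ETS and YY1 motifs, among the members and the other tested genes alike. The motifs differ in length, so their shares cannot be compared directly with each other. The EGR1-type GCGTGGGCG stood in 1 of 71 promoters, that of COX5A, 1.41%, against 1.24% of other tested genes; COX5A had a change of -0.15. The cyclic AMP response element TGACGTCA, read the same on both strands, stood in 4, 5.63%, against 3.09%. The median change was 0.02 for the 16 tested members with an NRF1-type match and -0.01 for the 53 without, and -0.0094 for the 18 with an ETS core and -0.0059 for the 51 without. The differences between these medians were not tested.

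Promoters of SDHD, UQCR11 and ATP5ME, from complexes II, III and V, are shown because they hold both an NRF1-type and an ETS match, in capitals; ATP5ME, which encodes subunit e of the ATP synthase, also has the cyclic AMP element and was named for its promoter. They are from build GRCh38.p14: SDHD at chr11:112086623-112086922, plus strand, UQCR11 at chr19:1605413-1605712, minus strand, and ATP5ME at chr4:674227-674526, minus strand.
SDHD: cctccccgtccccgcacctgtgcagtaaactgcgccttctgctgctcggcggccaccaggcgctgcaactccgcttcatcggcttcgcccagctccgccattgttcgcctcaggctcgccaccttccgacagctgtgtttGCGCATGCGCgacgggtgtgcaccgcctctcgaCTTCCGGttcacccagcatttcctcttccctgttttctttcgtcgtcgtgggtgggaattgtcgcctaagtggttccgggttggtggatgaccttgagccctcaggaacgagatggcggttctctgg
UQCR11: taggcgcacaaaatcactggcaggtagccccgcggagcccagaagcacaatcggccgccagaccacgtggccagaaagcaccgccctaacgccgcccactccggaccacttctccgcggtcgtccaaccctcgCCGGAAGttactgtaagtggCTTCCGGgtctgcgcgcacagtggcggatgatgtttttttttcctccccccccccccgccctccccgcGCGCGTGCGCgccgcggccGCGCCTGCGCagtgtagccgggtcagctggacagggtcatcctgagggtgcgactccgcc
ATP5ME: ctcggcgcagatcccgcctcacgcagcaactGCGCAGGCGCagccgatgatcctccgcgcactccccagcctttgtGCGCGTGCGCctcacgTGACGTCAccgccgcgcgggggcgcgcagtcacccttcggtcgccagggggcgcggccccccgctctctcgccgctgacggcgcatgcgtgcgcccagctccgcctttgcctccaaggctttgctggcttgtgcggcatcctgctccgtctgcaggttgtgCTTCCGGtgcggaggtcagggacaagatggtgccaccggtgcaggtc
In SDHD the NRF1-type match began at base 141 and the ETS core at base 174. UQCR11 had NRF1-type matches at bases 222 and 241 and ETS cores at 134 and 154. ATP5ME had NRF1-type matches at bases 32 and 77, the cyclic AMP element at 93 and the ETS core at 254. Their changes, 0.05 for SDHD, -0.19 for UQCR11 and 0.05 for ATP5ME, each had a 95% interval that included 0. ATP5ME had log2 signals of 9.11, 8.86 and 9.10 in CXCL12 arrays and 9.02, 8.86 and 9.03 in untreated arrays, so the groups overlapped.

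Genes that regulate OXPHOS transcription had 0 calls too. Only 0.0124% of all probe sets were called, so 0 calls says little about lists as short as those below. Of 20 listed, 18 had a probe set and 16 were tested, with 12 positive and 4 negative changes, a median of 0.04 and 0 calls, beside the median of 0.0023 over all probe sets. PERM1, a muscle regulator of oxidative genes, had the smallest unadjusted p of the list, with 5.65, 6.10 and 5.36 in CXCL12 arrays and 6.05, 5.96 and 6.01 in untreated arrays (change -0.30, SE 0.17). Its groups overlapped. Of 49 listed assembly factors outside the symbol rule, 46 were tested, with 26 positive and 20 negative changes, a median of 0.04 and 0 calls. ATPSCKMT, a methyltransferase of the c subunit, had 6.08, 6.39 and 6.76 in CXCL12 arrays and 5.996, 6.06 and 6.16 in untreated arrays (change 0.34, 95% interval -0.01 to 0.69); it was 0.16 without CXCL12 replicate 3. Of 20 genes of electron carriers and ubiquinone synthesis, 19 were tested, with 6 positive and 13 negative changes, a median of -0.04 and 0 calls. COQ3, a methyltransferase of ubiquinone synthesis, had 5.04, 5.28 and 4.93 in CXCL12 arrays and 5.38, 5.35 and 5.21 in untreated arrays (change -0.23, SE 0.13). None of the 13 subunits encoded by mitochondrial DNA had a named probe set here, so their transcripts were not analysed here.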

How the data were processed

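RNA from 6 samples was measured on 1 Affymetrix array each. The authors deposited log2 signals per probe set; the submitters' processing notes name RMA and the Transcriptome Analysis Console, with versions, settings and genome build not given in the sources used here. Scanner files were not used, so neither detection nor scan batch was examined. Precision is limited by the number of arrays. Groups follow the sample titles. Gene symbols come from the platform annotation, which can be old (17709 of 21448 probe sets have 1 symbol).

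The 16086 probe sets with a mean of at least 4.44 (the 25th percentile) entered a two-group limma fit (version 3.58.1, R 4.3.3, lmFit and eBayes, two-sided, Benjamini-Hochberg), which was tested on simulated data. The probe set with the highest mean stands for a symbol.

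Members, lists and the naming rule were chosen with earlier results of these data known. The rule named the 2 most positive and 2 most negative changes per complex (3 each for complex I subunits, all of complex II), core subunits, isoform families, EGR1, and the gene with the smallest p of each pathway list. Same-numbered arrays deviated from group means with correlations of -0.189, -0.105 and 0.11, so numbers were not taken as pairs. Alternatives were other filters, renormalization, a block for replicate number, weighted arrays, a trended prior, averaged probe sets, other member groupings and leaving out each array.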

Additional observations from a re-analysis of the deposited data

How the results depend on the processing

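No member passed the adjusted limma threshold under any alternative run. The count of members with an unadjusted p under 0.05 was 0 in the fit reported and became 2 with array weights (COX6A2 and COX6B2, where 6.51% of all probe sets passed); leaving out single arrays gave 0 to 3. On leaving out single arrays, members without overlap between groups ran from 7 to 20 and members with an interval within 1.5-fold from 69 to 79. Over all probe sets, 2 were called. The count was 1 with cyclic loess, 1 after median centring and 1 if dim probe sets were kept. It was 3 with the lower 50% left out, 3 with the trended prior and 4 with array weights. Leaving out single arrays gave 1 to 2. With the replicate block, the members called were 0, the members at unadjusted p under 0.05 were 0 and the probe sets called were 2, so it changed no call. Median changes moved by less than the spread between replicates under every alternative that kept the 6 arrays. When each array was left out they ran from -0.0373 to 0.0179 for all members, -0.055 to 0.0299 for complex I subunits, 0.0139 to 0.1283 for assembly factors, -0.0903 to 0.0835 for complex II, -0.1426 to -0.0008 for complex III, -0.0382 to 0.0253 for complex IV and -0.0468 to 0.0084 for complex V. Signs were compared gene by gene only for the genes chosen by the naming rule, and other members turned too. Among those chosen, signs turned in the scaling fits for COX6A1 (0.0038 and 0.01 with quantile normalization and cyclic loess), COX6B1 (0.0248 and 0.0173) and COX7A2 (0.0164 and 0.0102), and with array weights for COX7A2 (0.0296), NDUFAF7 (0.0594) and UQCR10 (-0.021). When each array was left out, signs also turned for these chosen genes, none of them called, with these ranges: ATP5MC1 -0.2885 to 0.0742, ATP5MC3 -0.016 to 0.1887, ATP5MG -0.0086 to 0.3008, COX6A1 -0.0726 to 0.0327, COX6B1 -0.0521 to 0.0787, COX7A1 -0.0325 to 0.1592, COX7A2 -0.1177 to 0.0661, COX7B -0.0147 to 0.2954, COX8C -0.0463 to 0.1543, CYC1 -0.1437 to 0.0655, NDUFAF1 -0.1648 to 0.0312, NDUFAF7 -0.1845 to 0.1872, SDHA -0.0903 to 0.1368, SDHD -0.0355 to 0.1162, UQCR10 -0.1267 to 0.2746, UQCRC2 -0.0286 to 0.1348, UQCRH -0.0388 to 0.1902, UQCRHL -0.2614 to 0.2026. The causes were not tested.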

Other observations

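Other mitochondrial gene groups had small changes as well. Their calls are given where 0.0124% of all probe sets were called. The mitochondrial ribosome translates the subunits encoded by mitochondrial DNA. Its list held 75 genes with a named probe set (symbols starting with MRPL or MRPS and a digit, and DAP3), not every gene of the ribosome, and all 75 were tested, with 27 positive and 48 negative changes, a median of -0.04 and 0 calls. Relative to the untreated mean, their median was 0.06, -0.09 and -0.02 on CXCL12 arrays 1 to 3 against -0.06, -0.01 and 0.05 on untreated arrays 1 to 3, so CXCL12 replicate 2 was the lowest array here too. The arrays of 4 of the 75 did not overlap, all 4 lower with CXCL12, where 4.48% of all probe sets were. MRPS27, a small-subunit protein, had 8.41, 8.31 and 8.08 in CXCL12 arrays and 8.45, 8.50 and 8.58 in untreated arrays (change -0.24, SE 0.13, limma adjusted p = 0.996).

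The citric acid cycle feeds complexes I and II. Its list, which also held pyruvate dehydrogenase genes and pyruvate carboxylase, had 6 positive and 11 negative changes over 17 tested. The median was -0.07, with 0 calls, where 0.0124% of all probe sets were called. PDHX, a structural part of the pyruvate dehydrogenase complex, had 7.82, 7.86 and 7.74 in CXCL12 arrays and 8.07, 7.90 and 7.98 in untreated arrays, a change of -0.18 (SE 0.12). Its groups did not overlap, nor did those of MDH2, malate dehydrogenase, at -0.13, which was named after its values were seen. These were 2 of 17, both lower, where 4.48% of all probe sets were lower without overlap. Of the 13 listed carriers and membrane proteins that move ATP and metabolites, 10 were tested, with 6 positive and 4 negative changes, a median of 0.02 and 0 calls. UCP2, an uncoupling-protein homologue, had 9.60, 9.93 and 9.67 in CXCL12 arrays and 9.96, 9.89 and 9.79 in untreated arrays, with overlapping groups (change -0.14).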
